A study of Rattus norvegicus with 18 samples.

Results

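Serpinb9b and Timp1 encode protease inhibitors of different families, and they were described in an INS-1 clone in which doxycycline switches on a folding-deficient insulin. INS-1 is a rat insulinoma line that makes insulin. The members were taken by name: every probe set that the platform annotates to Serpinb9b alone or to Timp1 alone, which was 1 probe set each (Entrez genes 306892 and 116510), or 2 of the 14217 genes that had a probe set of their own and 2 of 31042 probe sets. Both genes were chosen by their doxycycline to control ratios in these pairs, so those ratios are given below as a description, with no test.

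All cultures were clone #4S2, a single clone that carries pTet-ON and Ins2 (C96Y)-EGFP, mouse insulin 2 with a mutation that removes a disulfide bond, fused to a green fluorescent protein, and that was enriched by sorting for its brightest cells. Cultures received doxycycline at 2 µg/ml or no drug (control) and were harvested after 24 h, after 48 h or on day 5. Each of the 6 groups had 3 arrays, 1 from each of 3 independent experiments, so the 18 arrays form 9 same-numbered pairs of doxycycline over control. RNA came from whole cultures, so fewer cells of a type and less RNA per cell cannot be told apart. No doxycycline-treated culture without the transgene was analysed here.

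Protein that misfolds in the endoplasmic reticulum (ER) sets off the unfolded protein response. One arm, through the kinase PERK, raises translation of the transcription factor ATF4, whose targets include Trib3, Ddit3 (CHOP) and genes of amino acid supply, and amino acid shortage can reach the same targets through another kinase. The arms through ATF6 and IRE1/XBP1 raise ER chaperones such as Hspa5 (GRP78). Clade B serpins act mostly inside the cell, and human SERPINB9 inhibits granzyme B, the protease with which cytotoxic lymphocytes kill. Timp1 is a secreted glycoprotein that folds in the ER and inhibits matrix metalloproteinases outside the cell.

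The promoters are shown because ATF4 with a C/EBP partner, and ATF6 with NF-Y, are known to bind short elements in the promoters of their targets. Each is the RefSeq sequence of rat build GRCr8 from 250 bases before to 50 bases after the gene start, read 5′ to 3′ on the gene's strand. The capitals mark a match to the C/EBP-ATF element TGATGCAA, which reads TTGCATCA on the other strand. Serpinb9b lies at chr17:31594934-31595233 (minus strand) and Timp1 at chrX:3771073-3771372 (minus strand).
Serpinb9b: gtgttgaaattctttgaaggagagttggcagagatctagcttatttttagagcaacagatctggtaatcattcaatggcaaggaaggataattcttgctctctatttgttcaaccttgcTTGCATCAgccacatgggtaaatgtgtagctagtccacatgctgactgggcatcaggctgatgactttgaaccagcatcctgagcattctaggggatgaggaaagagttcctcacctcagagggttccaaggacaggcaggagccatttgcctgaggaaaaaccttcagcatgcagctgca
Timp1: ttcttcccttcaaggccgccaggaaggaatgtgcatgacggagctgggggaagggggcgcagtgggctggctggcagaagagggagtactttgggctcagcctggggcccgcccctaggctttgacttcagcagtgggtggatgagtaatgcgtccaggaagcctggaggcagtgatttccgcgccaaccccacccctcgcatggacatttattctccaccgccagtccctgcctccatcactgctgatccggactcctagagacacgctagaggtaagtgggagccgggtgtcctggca

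Of 5 motifs searched on both strands, the Serpinb9b promoter held 1 match, to the C/EBP-ATF element, which starts 131 bases before the gene start. The Timp1 promoter held no exact match to any of the 5, and near matches were not counted. The C/EBP-ATF element was found in 0.795% of 33469 rat promoters of this length, in 7 of 35 promoters of ATF4-target genes and in 0 of 26 promoters of ER chaperone genes. The UPR element TGACGTGG matched 0.595% of all promoters, 0 of 35 and 2 of 26. The ER stress element (CCAAT, any 9 bases, CCACG) matched 0.0657% of all promoters, 0 of 35 and 7 of 26, and ER stress element II (ATTGG, any 1 base, CCACG) matched 0.0508%, 0 of 35 and 2 of 26. The AP-1 site TGANTCA matched 7.33%, 5 of 35 and 0 of 26. None of these motifs contains another, although separate matches may overlap. A match is only a run of letters, and the lack of one says only that those letters are not in this window.

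The Serpinb9b match is set beside those of 5 of the 7 ATF4-target genes (the other two, Fgf21 and Pycr1, had no probe set of their own that was tested), each with 8 bases on either side and on the strand that reads TGATGCAA in capitals. The windows are chr17:31595099-31595122 (plus strand) for Serpinb9b, chr3:126795956-126795979 (minus) for Chac1, which degrades glutathione, chr1:190645941-190645964 (plus) for Nupr1, a stress-induced chromatin protein, and chr18:60275781-60275804 (minus), chr1:208225337-208225360 (plus) and chr19:55908362-55908385 (minus) for Nars1, Cars1 and Aars1, the tRNA synthetases for asparagine, cysteine and alanine.
Serpinb9b: catgtggcTGATGCAAgcaaggtt
Chac1: agcaggagTGATGCAAcggcggag
Nupr1: gccctgtcTGATGCAAtctggcct
Nars1: aggtgatcTGATGCAAcgcttcag
Cars1: ccagaatcTGATGCAAccgcggcg
Aars1: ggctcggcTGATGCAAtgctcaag

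At 48 h of doxycycline, Chac1 rose by 2.32 on the log2 scale (standard error 0.10, adjusted p = 0.00670, limma), Nupr1 by 1.41 (standard error 0.08, adjusted p = 0.00780), Nars1 by 0.94 (standard error 0.08, adjusted p = 0.0187) and Cars1 by 0.94 (standard error 0.07, adjusted p = 0.0137). Aars1 had a log2 fold change of 0.59 and did not pass (adjusted p = 0.0506, limma). Whether any of these elements is used in these cells was not tested.

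The array set had 3 features that bear on both members. The median signal of the arrays ran from 91.2 to 138.5. The library labelled doxycycline, 5 days, replicate 2 had the lowest median. It also had a GAPDH 3′ to 5′ signal ratio of 2.91, against 1.05 to 1.19 on the other 17 arrays. In the 5-day experiment 1 pair, 0 of 26 ER chaperone genes were higher in the library labelled doxycycline, and that library had the lowest chaperone level of the 18 arrays (-0.83, the mean log2 signal of the 26 genes, each centred on its own mean), against 0.38 in the library labelled control. The ratios of this pair as labelled run opposite to those its authors list for the experiment, so 5-day results are given as labelled and with the labels of this pair exchanged. Among the 8 other untreated libraries, control, 24 h, replicate 1 and control, 5 days, replicate 2 had levels of the 30 ATF4-target genes of 0.11 and 1.28, against -0.77 to -0.59 in the other 6.

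Both members were near the middle of the signal range. The mean log2 signal over 18 arrays was 7.33 for Serpinb9b and 6.96 for Timp1, above 54.1% and 50.3% of probe sets. Probe sets with a mean log2 signal under 6.93 (the 50th percentile) were left out of tests, so Timp1 passed by little. No value of either member lay at the floor of 5.99 signal units set under the weakest signals. The serpin genes next to Serpinb9b are similar in sequence, and probe sequences were not used here, so a part of its signal could come from them.

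Serpinb9b was higher with doxycycline in every pair at 24 h and 48 h, as 17.8% and 22.8% of probe sets tested were. At 24 h its deposited signal was 199.4, 224.6 and 299.4 in doxycycline cultures, against 123.3, 47.0 and 40.8 in control cultures of experiments 1 to 3. The groups did not overlap, and 5.03% of the 15521 probe sets tested had all 3 doxycycline arrays above all 3 controls in this way. The control of experiment 1 was the highest of the untreated ones, and the pair ratios on the log2 scale were 0.73, 2.18 and 2.88, a mean of 1.93 ± 1.10 (SD, n = 3 pairs). Leaving out experiment 1 gave 2.53 and leaving out experiment 3 gave 1.45.

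At 48 h the Serpinb9b signal was 304.8, 403.1 and 444.2 in doxycycline cultures, against 62.9, 63.8 and 64.6 in control cultures. The control cultures hardly differed from each other, and the groups did not overlap (11.2% of probe sets tested at this time). The log2 ratios were 2.24, 2.66 and 2.88, a mean of 2.60 ± 0.32 (SD, n = 3 pairs), or a mean ratio of 6.14 ± 1.32. Between 6 and 7 of the 15521 probe sets tested had a higher ratio than Serpinb9b in each of these pairs.

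At 5 days the direction of Serpinb9b differed between experiments. Its signal was 90.2, 286.1 and 216.4 in the libraries labelled doxycycline, against 285.3, 1171.6 and 67.3 in those labelled control. The groups overlapped (3.73% of probe sets tested had all labelled doxycycline arrays above all controls at this time), and the value of 1171.6, in an untreated library, was the highest of all 18 arrays. The log2 ratios were -1.65, -1.80 and 1.89, a mean of -0.52 ± 2.09 as labelled and 0.58 ± 2.06 with the labels of experiment 1 exchanged (SD, n = 3 pairs). Exchanging those labels leaves the negative ratio of experiment 2, the pair that holds the untreated library at 1171.6 and the library with the high GAPDH ratio.

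Timp1 was also higher with doxycycline in every pair at 24 h and 48 h, as 17.8% and 22.8% of probe sets tested were. At 24 h its deposited signal was 147.5, 150.4 and 185.5 in doxycycline cultures, against 79.0, 74.5 and 88.2 in control cultures. The groups did not overlap (5.03% of probe sets tested), and the control of experiment 1, high for Serpinb9b, was not the highest control for Timp1. The log2 ratios were 0.95, 0.97 and 1.09, a mean of 1.00 ± 0.07 (SD, n = 3 pairs), with a smaller spread between pairs than for Serpinb9b.

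At 48 h the Timp1 signal was 137.0, 213.3 and 241.1 in doxycycline cultures, against 105.7, 63.0 and 118.2 in control cultures. The groups did not overlap (11.2% of probe sets tested), although the lowest doxycycline value was close to the highest control value. The log2 ratios were 0.41, 1.76 and 1.08, a mean of 1.08 ± 0.67 (SD, n = 3 pairs), so here the pairs spread more than those of Serpinb9b. In experiment 1 1200 probe sets had a higher ratio than Timp1, against 18 in experiment 2 and 99 in experiment 3.

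At 5 days the Timp1 signal was 61.7, 142.0 and 205.4 in the libraries labelled doxycycline, against 235.7, 100.6 and 99.1 in those labelled control. Experiment 1 ran one way and experiments 2 and 3 the other. The log2 ratios of quantile-normalized signals were -1.87, 1.05 and 1.21, a mean of 0.13 ± 1.74 as labelled. The ratio of experiment 2 was smaller on the deposited signals. With the labels of experiment 1 exchanged the mean was 1.38 ± 0.44 (SD, n = 3 pairs) and all pairs ran the same way, as 18.2% of probe sets tested then did.

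The study's rule of size asks for a 2-fold difference in at least 2 experiments. It was applied here to ratios of quantile-normalized signals. Serpinb9b met the rule at 24 h (2 pairs) and 48 h (3 pairs) and, as labelled, did not at 5 days (1 pair). Timp1 met it at 48 h (2 pairs) and 5 days (2 pairs). It fell short at 24 h (1 pair), where its ratios of 1.93 and 1.96 were just below 2. On the deposited signals Timp1 met the rule at 24 h and, as labelled, did not at 5 days. Pair 2 at 24 h was then just above 2-fold (150.4 against 74.5), and 5-day pair 2 was below it (142.0 against 100.6). The shares of all tested probe sets that met the rule were 0.29% at 24 h, 0.509% at 48 h and 0.296% at 5 days. With the labels of experiment 1 exchanged, Serpinb9b met the rule at 5 days in 2 pairs and Timp1 in 3, as 0.541% of tested probe sets then did.

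**Figure D1:**
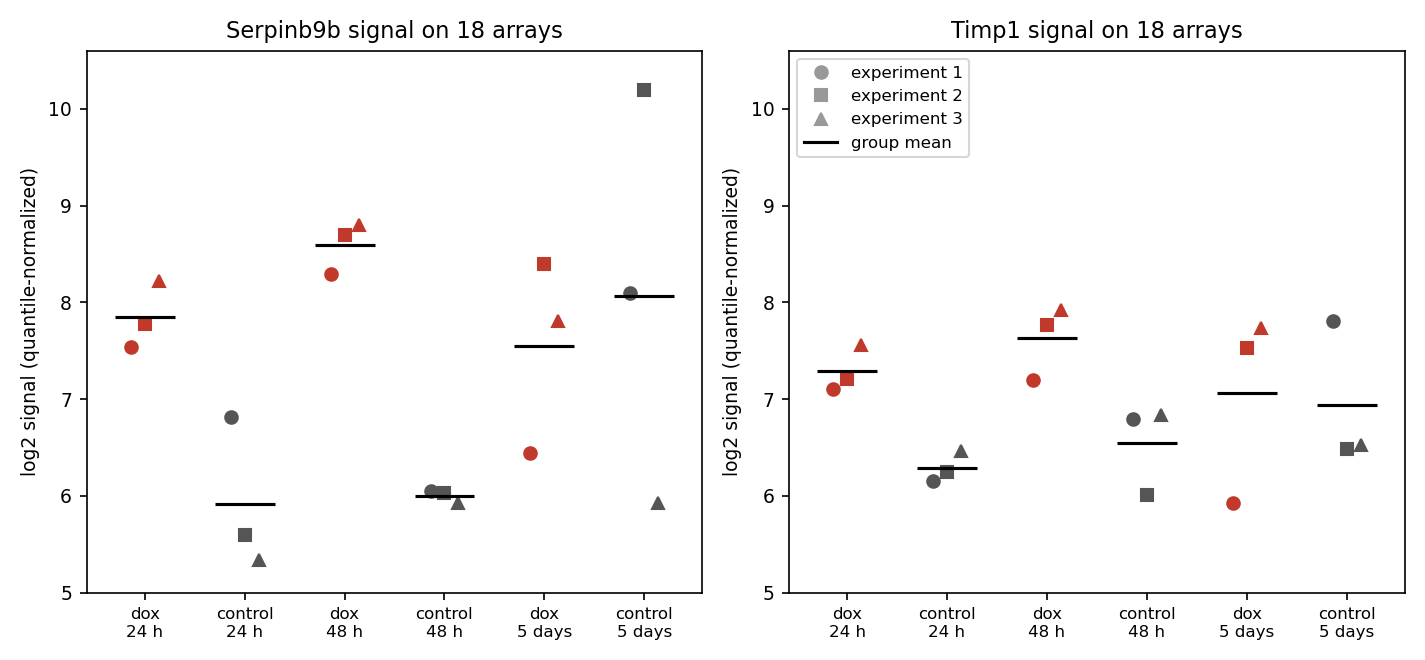
Log2 signal (quantile-normalized) of Serpinb9b (left) and Timp1 (right) on the 18 arrays, with doxycycline (dox, red) left of control (grey) at each time. Symbols mark experiments 1 to 3 and black bars group means; the untreated library of experiment 2 at 5 days stands highest for Serpinb9b (10.19), while for Timp1 the labelled control of experiment 1 at 5 days (7.81) stands with the doxycycline arrays.

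As labelled, the order of group means was led by the 48 h doxycycline cultures for both genes. For Serpinb9b the mean log2 signals ran 8.60 ± 0.27 (doxycycline, 48 h), 8.07 ± 2.13 (control, 5 days), 7.85 ± 0.34 (doxycycline, 24 h), 7.55 ± 1.00 (doxycycline, 5 days), 6.00 ± 0.07 (control, 48 h) and 5.92 ± 0.79 (control, 24 h), as SD with n = 3. Among neighbours in this order, only doxycycline at 5 days and control at 48 h had ranges that did not overlap. For Timp1 the order was 7.63 ± 0.38 (doxycycline, 48 h), 7.29 ± 0.23 (doxycycline, 24 h), 7.07 ± 0.99 (doxycycline, 5 days), 6.94 ± 0.75 (control, 5 days), 6.55 ± 0.46 (control, 48 h) and 6.29 ± 0.16 (control, 24 h). The ranges of all neighbours overlapped for Timp1. With the labels of experiment 1 exchanged, the 5-day means of Serpinb9b were 8.10 ± 0.29 in doxycycline and 7.52 ± 2.33 in control cultures. Those of Timp1 were then 7.69 ± 0.14 and 6.31 ± 0.33, and its 5-day doxycycline cultures came first in the order.

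The members were next set against the ATF4 targets and the ER chaperones, since the pairs differ in how far each set moved. At 24 h, 0 of 30 ATF4-target genes that could be tested rose and 8 of 26 ER chaperone genes did, beside 0.193% of all probe sets that limma called higher. At an unadjusted p under 0.05, 22 and 24 of them were higher, beside 1203 of all 15521 probe sets (limma). The methods' t-test called 0 of each list after adjustment. The median log2 fold change at 24 h was 0.50 for the ATF4 list and 0.71 for the chaperone list, against -0.01 for all probe sets tested. Without pairing the arrays, 0 chaperone genes passed at 24 h. No gene of either list fell (0.0129% of all probe sets did). When the 12 arrays of 24 h and 48 h shared 1 fit, 3 ATF4-target and 18 chaperone genes rose at 24 h, beside 1.09% of all probe sets (5.64% at 48 h).

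At 48 h, 22 of 30 ATF4-target genes and 22 of 26 chaperone genes rose and none fell, beside 2.33% of all probe sets that rose and 1.19% that fell, with medians of 0.86 and 0.67, against -0.01 for all. The largest increases on the ATF4 list were those of Trib3, a pseudokinase, by 3.85 (standard error 0.15, adjusted p = 0.00670), Slc7a11, the cystine transporter, by 3.79 (standard error 0.19, adjusted p = 0.00670), Gpt2, an alanine aminotransferase, by 2.41 (standard error 0.32, adjusted p = 0.0350) and Chac1. On the chaperone list they were those of Sdf2l1, a component of the ER folding machinery, by 1.86 (standard error 0.08, adjusted p = 0.00670), Fkbp11, a prolyl isomerase, by 1.59 (standard error 0.07, adjusted p = 0.00670), Pdia2, a disulfide isomerase, by 1.40 (standard error 0.10, adjusted p = 0.0137) and Creld2 by 1.37 (standard error 0.08, adjusted p = 0.00930). These calls rested on all experiments: leaving out experiment 1, 2 or 3 left 0, 9 and 7 ATF4-target genes and 0, 3 and 2 chaperone genes. With no filter on signal 0 genes of either list passed, and in a fit of all 18 arrays with exchanged labels 1 ATF4-target and 15 chaperone genes rose at 48 h. At 5 days limma called 0 probe sets higher (0%) and 0 of either list (0 of either list also at an unadjusted p under 0.05, and by the methods' t-test). The 5-day list medians were -0.19 (ATF4) and 0.12 (chaperones) as labelled, and 0.18 and 1.06 with the labels of experiment 1 exchanged. In a fit of all 18 arrays with exchanged labels, 20 chaperone and 0 ATF4-target genes rose at 5 days, beside 1.83% of all probe sets.

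The mean ratios of the lists parted in the first experiment at 24 h and the second at 5 days. At 24 h the mean log2 ratio of the 30 ATF4-target genes was 0.12, 0.77 and 1.02 in experiments 1 to 3, while that of the 26 chaperone genes was 0.76, 0.68 and 0.70. At 48 h the means were 1.13, 1.11 and 1.16 for the ATF4 list and 0.78, 0.89 and 0.78 for the chaperones. At 5 days they were -0.55, -1.09 and 1.09 for the ATF4 list and -1.21, 1.12 and 0.66 for the chaperones, as labelled.

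In 24 h pair 1, Serpinb9b had its lowest ratio of the 6 pairs at 24 h and 48 h (0.73), where the ATF4 list also had its lowest mean, while the ratio of Timp1 (0.95) was close to those of the other 24 h pairs (0.97 and 1.09). A positive ratio in this pair was found for 49.4% of probe sets tested. In 5-day pair 2, Serpinb9b (-1.80) had the sign of the ATF4 list and Timp1 (1.05) that of the chaperones. A positive ratio there was found for 56.6% of probe sets tested. This pair holds the library with the high GAPDH ratio and the lowest median signal, and the part of that library in the result was not tested. Quantile normalization raised its Timp1 signal from 142.0 to 184.8 and lowered that of its control from 100.6 to 89.5. The Timp1 ratio of this pair was thus positive but smaller on the deposited signals.

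**Figure D2:**
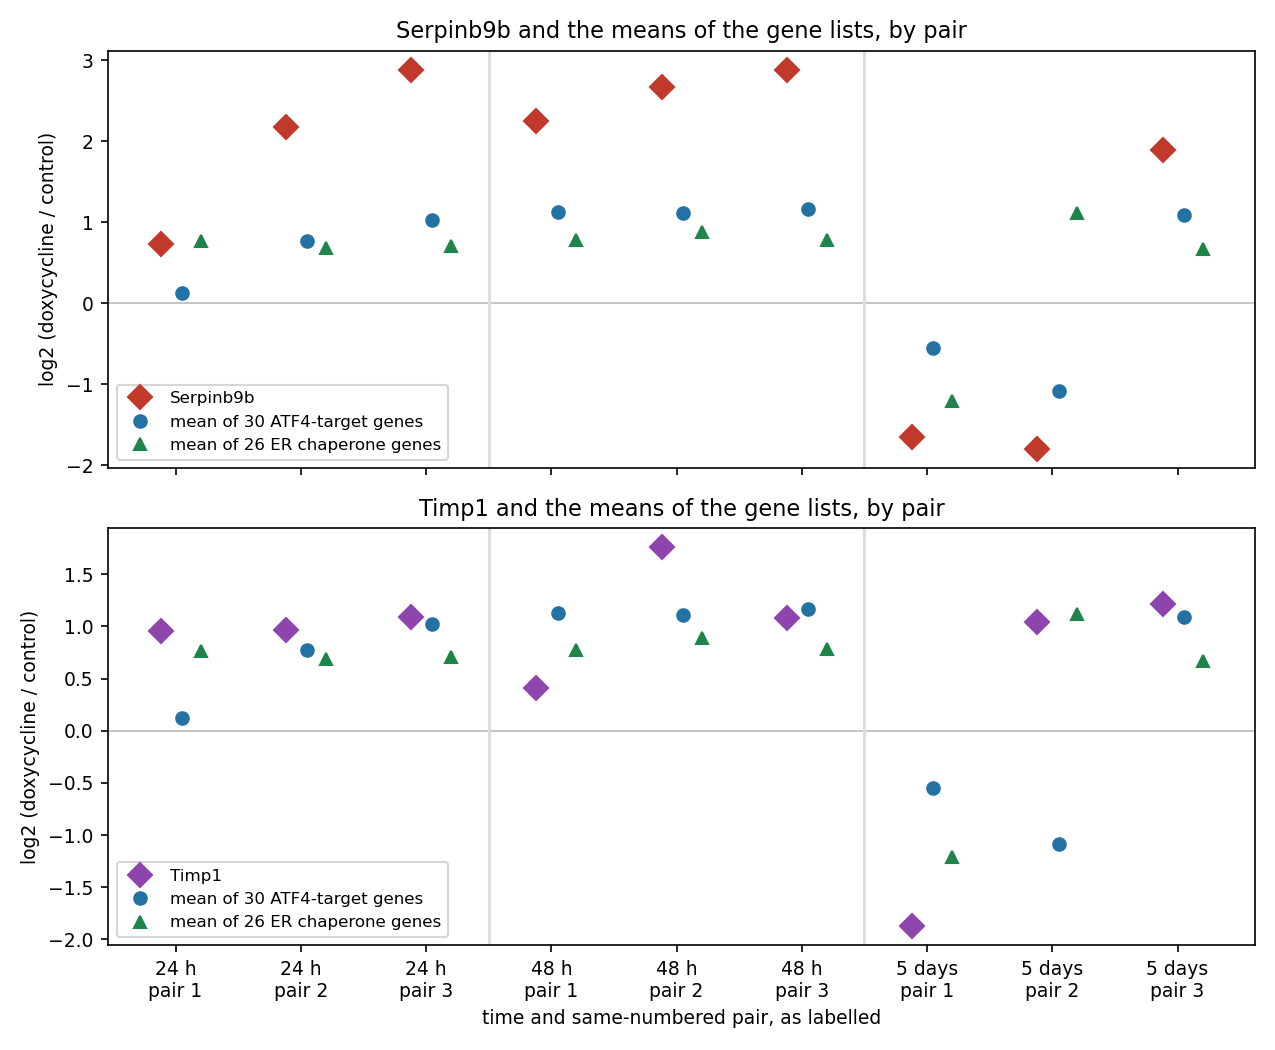
Log2 ratio of doxycycline to control in the 9 same-numbered pairs, as labelled, for Serpinb9b (top, red diamonds) and Timp1 (bottom, purple diamonds), with the mean of 30 ATF4-target genes (blue circles) and of 26 ER chaperone genes (green triangles). Ratios are of quantile-normalized signals. In 5-day pair 2 Serpinb9b lies at -1.80 and the ATF4 list at -1.09, while Timp1 lies at 1.05 and the chaperones at 1.12. The Timp1 ratio of this pair is smaller on the deposited signals.

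Over the 9 pairs, the Pearson correlation of the Serpinb9b ratio was 0.97 with the ATF4-list mean and 0.47 with the chaperone mean. That of Timp1 was 0.48 with the ATF4 list and 0.93 with the chaperones. The correlation between the lists was 0.34 and between the members 0.60. These are descriptions over 9 pairs, some of which share a time and which may not be independent, and the 5-day pairs stand apart from the rest.

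The likeness of Serpinb9b to the ATF4 list stayed at 0.78 or above in each set of pairs and measure tried over pairs. It was 0.94 over the 6 pairs of 24 h and 48 h, 0.97 without 5-day pair 1, 0.96 without 5-day pair 2, 0.97 with exchanged labels, 0.86 over 7 pairs without the 2 farthest from the median and 0.78 as a Spearman correlation. Among the 6 earlier pairs, 24 h pair 1 lay apart, with a mean ratio of 0.12 for the ATF4 list and 0.73 for Serpinb9b. The other earlier pairs ran from 0.77 to 1.16 for the list and from 2.18 to 2.88 for Serpinb9b. The correlation over the earlier pairs without 24 h pair 1 was not computed. The correlation of Serpinb9b with the chaperones was 0.10 over the 6 earlier pairs, -0.75 without 5-day pair 1 and 0.89 without 5-day pair 2, so it has no settled sign.

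The likeness of Timp1 to the chaperones rested on 5-day pair 1, the pair whose labels are in doubt. It was 0.95 without 5-day pair 2, but 0.16 without 5-day pair 1, 0.53 with the labels of that pair exchanged, 0.54 over the 6 earlier pairs, 0.38 without the 2 farthest pairs and 0.30 as a Spearman correlation. Its correlation with the ATF4 list was lower than that with the chaperones in most of these (0.09 without 5-day pair 1, 0.04 with exchanged labels, 0.12 over the 6 earlier pairs and 0.15 without the 2 farthest), and higher as a Spearman correlation (0.38). The chaperone means of the other 8 pairs lay between 0.66 and 1.12.

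**Figure D3:**
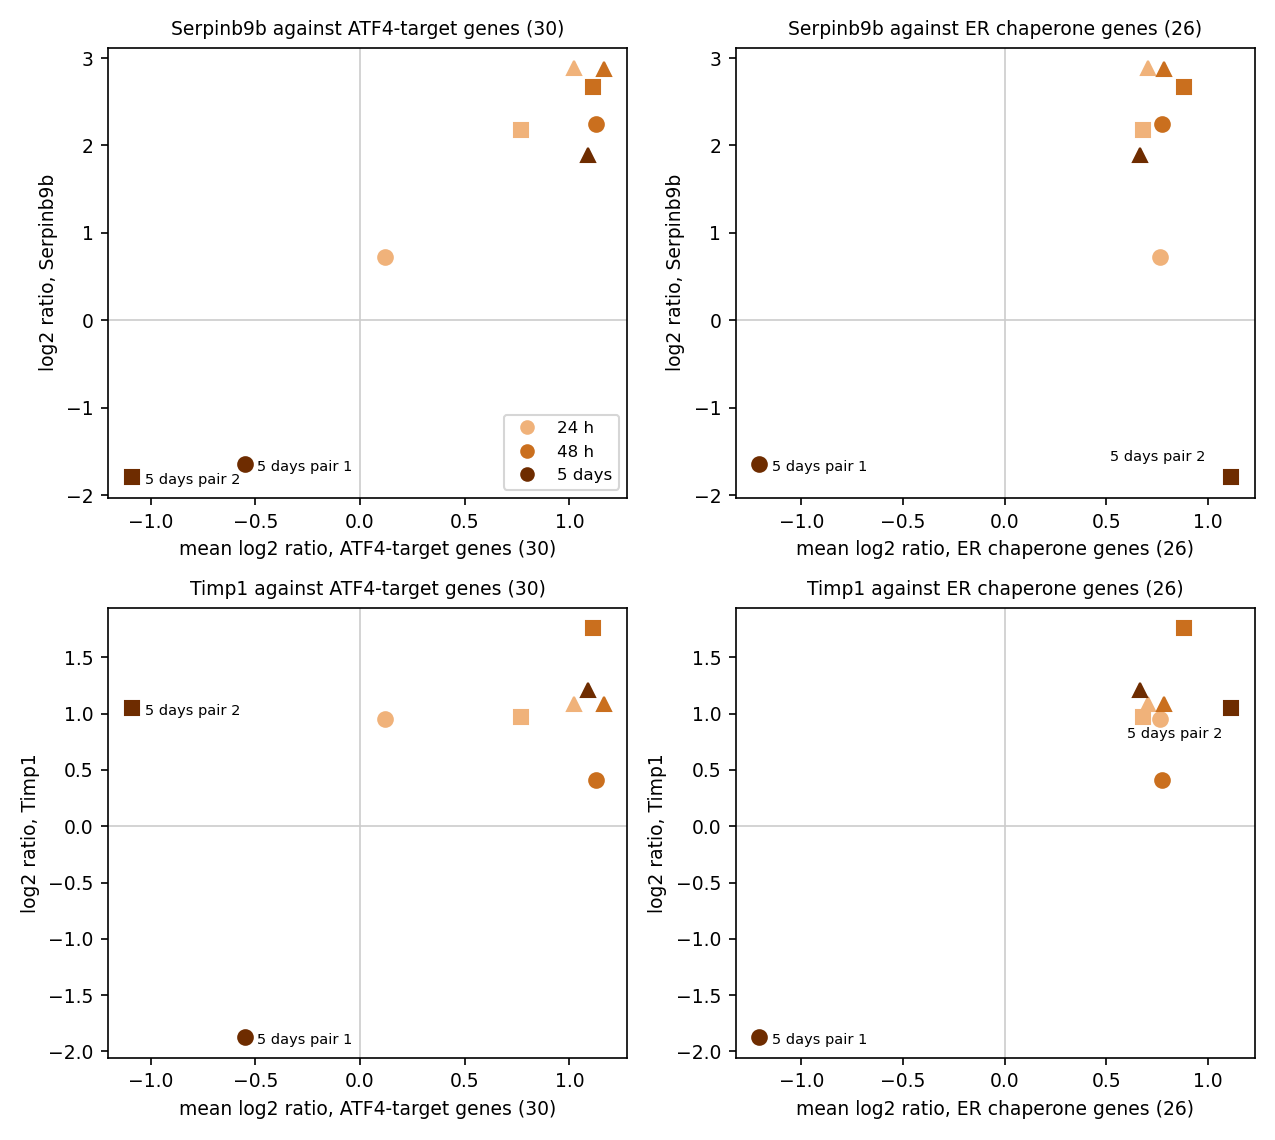
Log2 ratio of Serpinb9b (top) and Timp1 (bottom) against the mean log2 ratio of 30 ATF4-target genes (left) and 26 ER chaperone genes (right) in 9 pairs, coloured by time, with circles, squares and triangles for pairs 1, 2 and 3. In the lower right panel 8 pairs form a cloud between 0.66 and 1.12 on the x axis and 5-day pair 1 lies alone at -1.21.

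The genes whose ratios were most like those of Serpinb9b over the 9 pairs, among 9076 genes, were Unc5b, a netrin receptor (r = 0.991), Xpot, the tRNA exportin (0.984), Cebpg, a C/EBP factor (0.981), Sel1l, of ER-associated degradation (0.980), Chac1 (0.979), Ddit3 (0.978), Yars1, the tyrosyl-tRNA synthetase (0.976) and Lmo4, a LIM-domain protein (0.974). Cebpg, Chac1 and Ddit3 are on the ATF4 list. Of the 30 ATF4-list genes 16 were among the 100 nearest, and of the 26 chaperones 0. The median correlation with Serpinb9b was 0.93 for ATF4-list genes and 0.44 for chaperones, against -0.12 for all genes. Trib3 correlated with Serpinb9b at 0.97, Atf4 at 0.97, Hspa5 at 0.43 and Sdf2l1 at 0.38.

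For Timp1 the nearest genes were Ddx50, an RNA helicase (r = 0.981), Erp29, an ER folding protein (0.979), Selenom, an ER selenoprotein (0.975), Dnajb9, a co-chaperone of GRP78 (0.968), Pex2, of peroxisome assembly (0.964), Sec16a, of ER exit sites (0.963), Preb, which activates the COPII GTPase (0.956) and Sirt3, a mitochondrial deacetylase (0.950). Of the 26 chaperones 14 were among the 100 of 9076 genes nearest to Timp1, and of the 30 ATF4-list genes 0. The median correlation was 0.91 for chaperones and 0.46 for ATF4-list genes, against -0.02 for all genes. Trib3 correlated with Timp1 at 0.47, Ddit3 at 0.70, Atf4 at 0.67, Hspa5 at 0.91 and Sdf2l1 at 0.91. Both rankings, with the list counts and medians drawn from them, used 5-day pair 1 as labelled. The counts and medians were not computed without it. Over the 6 pairs of 24 h and 48 h, the 8 genes nearest to Serpinb9b ranked between 10 and 115 and those nearest to Timp1 between 44 and 1256 of 9076.

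Signals of single arrays were compared with the level of each list in the same way. Over the 18 arrays, Serpinb9b correlated at 0.96 with the ATF4-list level and 0.50 with the chaperone level, and Timp1 at 0.51 and 0.92. Treatment is shared by both axes here, so the 9 untreated arrays were also taken alone. Over those, Serpinb9b correlated at 0.97 with the ATF4 list and -0.11 with the chaperones (0.76 and -0.89 without the 2 farthest arrays), and Timp1 at 0.19 with the ATF4 list and 0.83 with the chaperones (-0.40 and 0.28 without the 2 farthest arrays). The 9 untreated arrays include the library labelled control, 5 days, replicate 1.

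**Figure D4:**
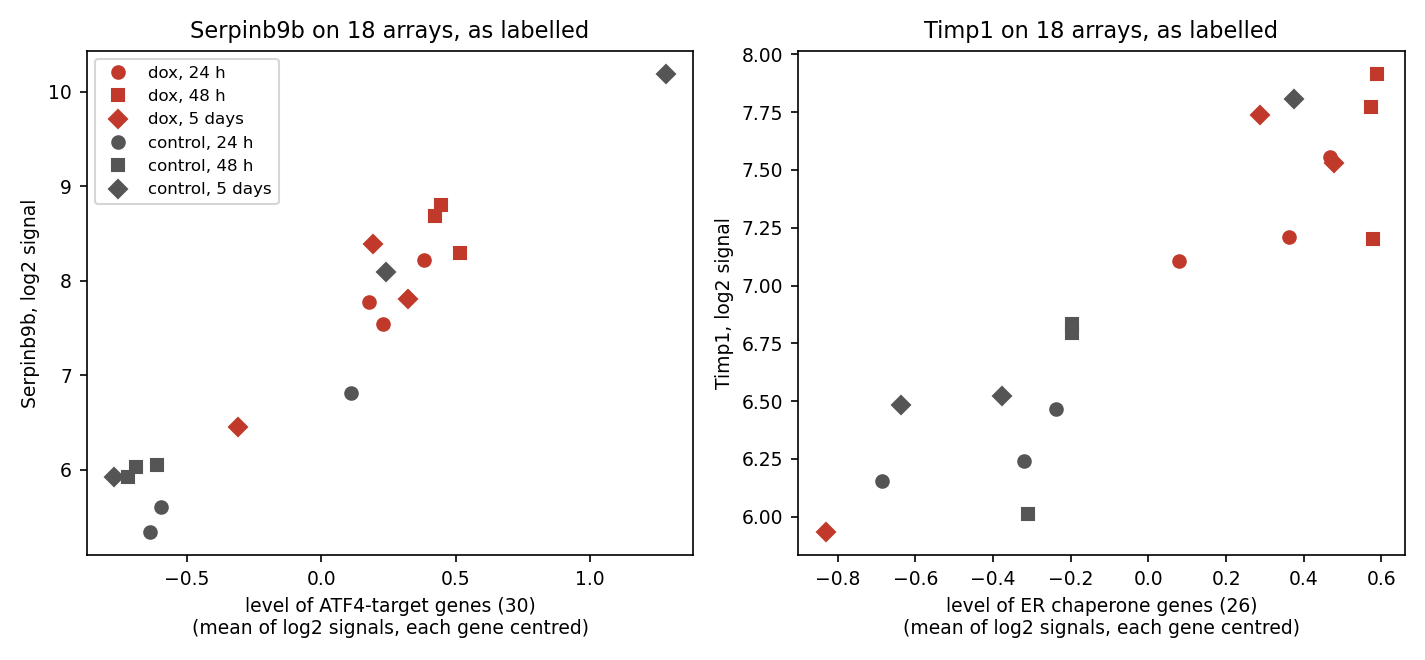
Log2 signal of Serpinb9b against the level of 30 ATF4-target genes (left) and of Timp1 against the level of 26 ER chaperone genes (right) on 18 arrays as labelled, where a level is the mean log2 signal with each gene centred on its own mean. Doxycycline (dox) arrays are red and control arrays grey, and the untreated library at 10.19 (Serpinb9b) has the highest ATF4-list level, 1.28.

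Among the libraries labelled control, Serpinb9b varied more than Timp1 at 24 h and 5 days. At 48 h Timp1 varied more (SD 0.46, against 0.07 for Serpinb9b). The log2 signal of Serpinb9b in experiments 1 to 3 was 6.82, 5.60 and 5.34 at 24 h and 6.05, 6.03 and 5.93 at 48 h. At 5 days it was 8.10, 10.19 and 5.92. The high libraries labelled control were those of experiments 2 and 1 at 5 days, followed by experiment 1 at 24 h. The label of the experiment 1 library at 5 days is in doubt, and with the labels exchanged the untreated value there would be 6.45. Trib3 was high in the same libraries, at 12.30 (experiment 2) and 9.74 (experiment 1) at 5 days and 8.85 in that of 24 h. Timp1 had log2 signals of 6.16, 6.24 and 6.47 at 24 h and 6.79, 6.01 and 6.83 at 48 h. At 5 days they were 7.81, 6.48 and 6.52. The only library labelled control above 7 for Timp1 was control, 5 days, replicate 1.

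A test between times in untreated cultures uses no array labelled doxycycline, although it shares the untreated arrays with the ratios above. At 5 days the log2 signal of Serpinb9b was 8.07 on average, against 5.92 at 24 h, a difference of 2.15 (95% interval 0.30 to 4.00, adjusted p = 0.998, limma). At 48 h it was 6.00, a difference of 0.08 (95% interval -1.77 to 1.93, adjusted p = 1.00, limma). For Timp1 the difference was 0.65 at 5 days (95% interval -0.11 to 1.41, adjusted p = 0.998, limma) and 0.26 at 48 h (95% interval -0.50 to 1.02, adjusted p = 1.00, limma). The intervals are not adjusted for the number of probe sets, while the adjusted p-values are. The unadjusted p of the 5-day Serpinb9b difference was 0.0267 (limma). The fit pools the spread of the 3 times, and the SDs of Serpinb9b were 0.79 (24 h), 0.07 (48 h) and 2.13 (5 days). Limma called 0 of 15521 probe sets in either comparison (0%). At an unadjusted p under 0.05, 294 were higher and 316 lower at 5 days, and 84 higher and 126 lower at 48 h. Without the control of experiment 2 at 5 days the Serpinb9b difference was 1.09, and without that of experiment 3 it was 3.23 (adjusted p = 0.219, limma). Without the library labelled control of experiment 1 at 5 days the Timp1 difference was 0.22. With the labels of that experiment exchanged the 5-day differences were 1.60 for Serpinb9b and 0.02 for Timp1 (adjusted p = 1.00 for both, limma).

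Few other protease inhibitors could be tested. Of 28 other serpins with a probe set of their own 5 could be tested, and limma called 0 at each time. Of all probe sets limma called 0.193% higher and 0.0129% lower at 24 h, 2.33% and 1.19% at 48 h and 0% at 5 days, so a count of 0 among so few genes is near the background. At an unadjusted p under 0.05, 1203 of all 15521 probe sets were higher and 1077 lower at 24 h (limma). At 48 h 1895 were higher and 1933 lower, and at 5 days 172 and 213. Of the 5 serpins, 1 was higher and 1 lower at 24 h, while at 48 h 2 were higher and 1 lower and 0 passed at 5 days. The methods' t-test called 0 after adjustment. Their median log2 fold change at 48 h was 0.10, against -0.01 for all probe sets. Serpina10, an inhibitor of coagulation factors, had log2 ratios whose mean was 0.52 at 48 h (adjusted p = 0.199, limma), and Serping1, the C1 inhibitor, had a mean of -0.73 (adjusted p = 0.0762, limma).

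The serpin gene nearest in kind to Serpinb9b that could be tested was Serpinb9. Its tested probe set had log2 ratios of -0.16, 0.54 and 0.05 at 24 h and 0.03, -0.16 and -0.63 at 48 h. At 5 days they were -0.48, 0.79 and 0.87. In the 6 earlier pairs the highest Serpinb9 ratio was thus below the lowest one of Serpinb9b. The second Serpinb9 probe set lay below the signal filter and had log2 ratios of 0.66, 0.34 and 0.17 at 48 h. Timp1 lies within the Syn1 gene and next to Araf in the RefSeq annotation. Of the Syn1 probe sets, which measure a synaptic vesicle protein, one had log2 ratios of -0.08, -0.11 and -0.19 and the other -0.12, -0.20 and -0.48 at 48 h, so neither Syn1 probe set was higher where Timp1 was. One probe set of Araf, a RAF-family kinase, had log2 ratios of 0.27, 0.38 and 0.20 at 48 h, with all doxycycline arrays above all controls (11.2% of probe sets tested). The other Araf probe set had 0.30, -0.10 and 0.00.

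Of 22 inhibitors outside the serpin family with a probe set of their own (without Timp1) 12 could be tested and 0 were called at any time, which is again near the background shares. At an unadjusted p under 0.05, 2 were lower at 48 h and 0 higher (limma). Of all 15521 probe sets, 1933 were lower and 1895 higher in this way. The median log2 fold change of the 12 inhibitors at 48 h was -0.03. Timp2, the only other metalloproteinase inhibitor of the Timp family above the filter, had log2 fold changes of -0.13, 0.03 and 0.28 in order of time (adjusted p = 0.498, 0.839 and 0.935, limma). Reck, a membrane-bound inhibitor of metalloproteinases, had -0.45 at 48 h (adjusted p = 0.118, limma). Cast, which inhibits calpains, had -0.40 at 48 h (adjusted p = 0.0578, limma).

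The possible partners of these inhibitors gave few values. Of 28 metalloproteinases and Timp1-binding proteins with a probe set 9 could be tested and 0 were called at any time (again near the background shares), with a median log2 fold change of -0.06 at 48 h. At an unadjusted p under 0.05, 1 was lower at 48 h, beside 1933 of all 15521 probe sets (limma). The 9 tested included Adam10, a sheddase, with 0.10 at 48 h (adjusted p = 0.504, limma). They also included Cd63, a tetraspanin to which Timp1 binds, with -0.06 (adjusted p = 0.638, limma). Of 9 granzymes, caspases and related genes (Gzmb and Casp1 among them) 0 lay above the filter, so none of these could be tested. AP-1 and related factors are known to act on Timp1 in mouse and human cells, and 6 could be tested. At 48 h Atf3 rose by 0.98 (standard error 0.11, adjusted p = 0.0260, limma) and Jun by 0.49 (standard error 0.07, adjusted p = 0.0383, limma). Of all probe sets, 2.33% rose at that time. Junb, Jund, Mafg and Mafk had -0.13, -0.004, 0.13 and 0.26 at 48 h and did not pass. None passed at 24 h, where 2 were higher at an unadjusted p under 0.05 (limma), beside 1203 of all 15521 probe sets. Whether these factors act on Timp1 in these cells was not tested.

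**Figure D5:**
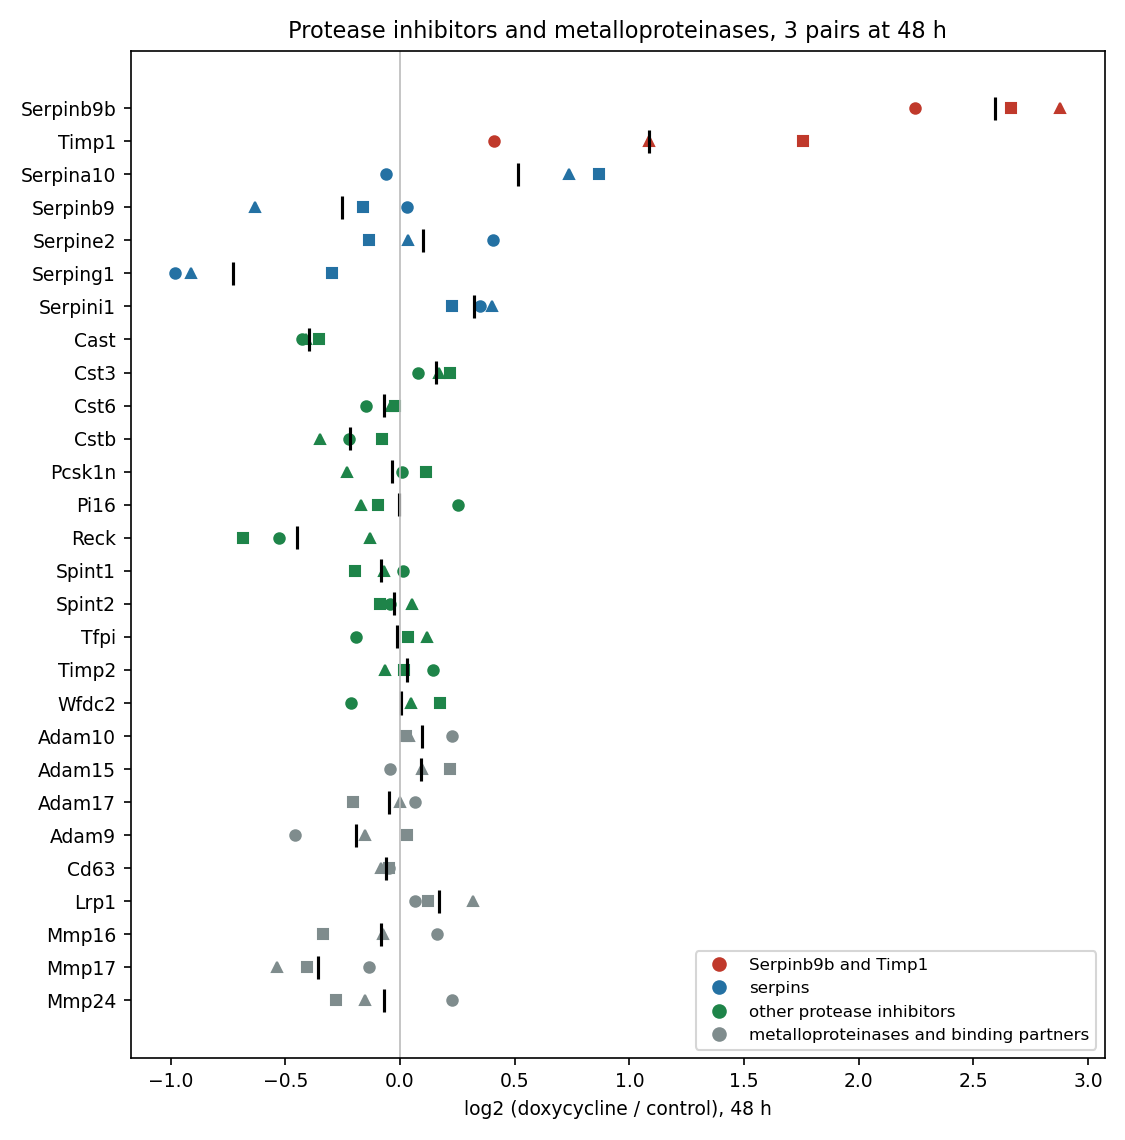
Log2 of doxycycline over control in the 3 pairs of 48 h (circles, squares and triangles for experiments 1, 2 and 3; black bars, means) for Serpinb9b and Timp1 (red), 5 other serpins (blue), 12 other inhibitors (green) and 9 metalloproteinases and binding partners (grey). The means of Serpinb9b (2.60) and Timp1 (1.08), genes chosen by such ratios, lie right of those of the others, which run no higher than 0.52. Single points overlap, with Timp1 at 0.41 in experiment 1 and Serpina10 at 0.87 in experiment 2.

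Few markers of other cell types lay above the filter. All 9 beta cell markers with a probe set of their own lay above it, and their summed signal was 92936 to 104538 in doxycycline cultures, against 102615 to 112956 in control cultures at 48 h. Of 11 fibroblast markers, cells that make much Timp1, 3 lay above the filter, and the summed signal of the 11 at 48 h was 2835 to 3173 in doxycycline cultures, against 3785 to 4252 in control cultures. Thy1 and Fn1 were the brightest of the 11, with geometric mean signals of 1505 and 1392, against 160 or less for the others. Col1a1, Col1a2 and Dcn lay below the filter, and Fn1 fell by 0.98 (standard error 0.08, adjusted p = 0.0143, limma). The other two above it, Pdgfra and Thy1, had log2 fold changes of -0.09 and -0.03 at 48 h and did not pass (adjusted p = 0.667 and 0.905, limma). Of 9 cytotoxic lymphocyte and 8 macrophage markers 0 lay above the filter, with summed signals of 78.8 to 265.2 and 99.4 to 296.6 over all arrays. The part of other cells in the members' values was not tested further.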

How the data were processed

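RNA from 18 cultures was labelled and hybridised to Affymetrix Rat Genome 230 2.0 arrays. The authors deposited signal intensity values for 31099 probe sets on a linear scale, scaled to a trimmed mean of 500.14 to 500.17 per array. How probes were summarised is not stated in the sources read for it, and the study's methods name GeneSpring for its own analysis. After 57 control probe sets were left out, signals were quantile-normalized, floored at the 10th percentile (5.99) and taken as log2. Probe sets were named from the platform annotation: 20826 had 1 gene (20758 matched RefSeq), 436 several and 9780 none, and for list genes with several probe sets the brightest on average was used. Tests left out the dimmer probe sets, those whose mean log2 signal was under the 50th percentile (6.93), which left 15521, of 9077 genes.

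Doxycycline was compared with control at each time with limma 3.58.1 in R 4.3.3, with the same-numbered pair as a block and Benjamini-Hochberg adjustment, at a threshold of 0.05. The deviations of same-numbered arrays from their group means correlated at 0.109 to 0.667 in the 9 pairs, and the numbers stand for independent experiments. The labels do not say whether a number stands for the same experiment at different times. No pair among 153 pairs of arrays was identical. The script was checked on simulated data with 200 changed probe sets. Untreated times were compared without the block. Python 3.11.15, NumPy 2.4.6, SciPy 1.17.1, pandas 2.3.3 and Matplotlib 3.10.9 were used.

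The members and the 11 gene lists were chosen with earlier results of these data known. Named genes were the members, for each the 8 genes of highest correlation over 9 pairs, the 4 list genes with the largest log2 fold changes among those that passed (other list genes were chosen after their values were seen), and Atf4, Ddit3, Trib3, Hspa5 and Sdf2l1. Promoters were those of RefSeq build GRCr8 (33469). Alternatives were no quantile normalization, log2(signal + 16) without a floor, no filter, no block, all arrays in 1 fit, the methods' t-test, exchanged labels in the 5-day experiment 1 pair and each replicate left out. A fit of the 12 arrays of 24 h and 48 h, fits of all arrays with exchanged labels and correlations without 5-day pair 1 or 2 were added after seeing the data. The number of arrays, 3 per group, limits the precision.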

Additional observations from a re-analysis of the deposited data

How the results depend on the processing

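The direction of both members at 24 h and 48 h was the same under each alternative run. The Timp1 mean log2 ratio at 24 h was 0.87 with log2(signal + 16). At 5 days the Serpinb9b mean of -0.52 became 0.58 with the experiment 1 labels exchanged and ranged from -1.72 to 0.12 with a replicate left out. That of Timp1, 0.13 as labelled, was -0.13 without quantile normalization and ranged from -0.41 to 1.13 with a replicate left out.

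Of all probe sets, 30 rose and 2 fell at 24 h, 361 rose and 185 fell at 48 h, while 0 passed at 5 days. With no replicate block the counts were 0 and 0 at 24 h and 208 and 67 at 48 h. With no filter they were 0 and 0 at both times, and with all 18 arrays in 1 fit also 0 and 0. The methods' t-test gave 0 and 0 at 24 h and 121 and 41 at 48 h, and log2(signal + 16) gave 71 and 14 at 24 h. The 12 arrays in 1 fit gave 169 and 45 at 24 h and 876 and 734 at 48 h. All arrays with exchanged labels gave 0 lower at 24 h, and 152 higher and 42 lower at 48 h. At 5 days that fit gave 284 higher and 141 lower. With a replicate left out the counts ranged from 0 to 0 at 24 h in each direction, and from 0 to 29 higher and 0 to 7 lower at 48 h.

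For the lists, no filter left 0 chaperone genes higher at 24 h and 0 genes of either list at 48 h, and with no replicate block 0 chaperone genes were higher at 24 h. The 12-array fit gave 3 ATF4-target and 18 chaperone genes at 24 h. All arrays with exchanged labels gave 1 ATF4-target gene at 48 h, and 4 chaperone genes at 24 h and 20 at 5 days. With a replicate left out, chaperone genes higher ranged from 0 to 0 at 24 h and 0 to 3 at 48 h, and ATF4-target genes from 0 to 9 at 48 h. The 5-day ATF4-list median became 0.18 with exchanged labels and ranged from -0.70 to 0.24 with a replicate left out, and the chaperone median ranged from -0.22 to 0.88 (0.66 to 0.72 at 48 h).

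The correlation of Serpinb9b with the ATF4 list was 0.94 over 6 pairs, 0.86 without the 2 farthest pairs and 0.78 as a Spearman correlation. With the chaperones it was -0.11 on untreated arrays, -0.75 without 5-day pair 1 and -0.54 with exchanged labels. That of Timp1 with the chaperones was 0.16 without 5-day pair 1. In untreated cultures the 48 h difference of Serpinb9b ranged from -0.21 to 0.53 with an array left out, and 3 probe sets were called at 48 h with no filter. With the replicate block 0 probe sets were called in untreated cultures at either time. The adjusted p over these alternatives ran from 0.219 to 1 for Serpinb9b and from 0.534 to 1 for Timp1 at 5 days. The cause of these shifts was not tested. Neither member has a second probe set of its own to compare. Detection calls were not used here, so signal over background was not assessed, and Timp1 lies just above the filter.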
